A study of Mus musculus with 8 samples.

Results

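The 39 genes described here encode proteins of the lysosome: the subunits of the vacuolar proton pump (V-ATPase), the membrane proteins of the lysosome, and the soluble hydrolases and cofactors of its lumen, with the cathepsins left out. They were taken from a list of names, chosen with earlier results of these data known. Every probe of a listed gene was read on the bead arrays. Of the 39 genes, 36 had a named probe among the 16593 named genes of the array, and 35 were above background and entered the tests, among 9758 genes tested in all. The 35 comprised 15 V-ATPase genes and 20 others. Atp6v0c, Cd68 and Npc1 had no probe under their name in the tables used here. Atp6v0d2 had 1 probe, which was above background on 0 of the 8 arrays.

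The arrays came from preadipocytes, the precursors of fat cells, taken from the white fat of wildtype and of Irf3-knockout mice and differentiated in culture in a high-glucose medium that contained insulin at 24 nM and sodium ascorbate. RNA was taken on days 3, 5, 7 and 9, with 1 array for each genotype and day, 4 arrays per genotype. Irf3 encodes a transcription factor that switches on interferon genes once viral or bacterial products are sensed, and the series follows fat cell differentiation when it is lost. Strain, sex, age and the deleted part of Irf3 are not given in the sources used here, and no label says that the arrays came from separate animals or cultures, so the p-values measure only the spread between days.

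Lysosomes break down proteins, lipids and sugars in an acid lumen. The V-ATPase acidifies that lumen: its V1 sector, on the cytosolic side, splits ATP, and its V0 sector, in the membrane, carries the protons. Macrophages hold many lysosomes, osteoclasts bring the pump to the cell surface, and fat cells use a lysosomal lipase to free cholesterol and fatty acids from lipids taken in. The factor TFEB and its relatives, which drive many lysosomal genes, bind DNA at motifs built around CACGTG.

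Levels are log2 intensities after background correction and quantile normalization, and a difference is knockout minus wildtype on that scale, as a mean over the 4 days ± its standard error. Genes were called at an adjusted p under 0.05 over all 9758 genes. The level of Irf3 itself was 11, 11.21, 11.38 and 11.35 in wildtype on days 3, 5, 7 and 9 and 10.75, 10.72, 10.36 and 11.09 in knockout. It was lower in knockout on each day, by -0.50 ± 0.17 (limma, adjusted p = 0.166), and since the place of the deletion is not given, this level checks no label. Between 12224 and 13414 probes per array, 47.6% to 52.2%, were above background. The 8 tested preadipocyte markers were detected on every array, with summed intensities of 90186 to 95260 in wildtype and 83628 to 95659 in knockout. Of these 8, 2 had an estimate above 0 and 6 below. Dlk1 was called higher, by 0.88 (limma, adjusted p = 0.0307), and 0 were called lower. Summed intensities of the 13 tested markers of mature fat cells ran from 27610 to 60538 in wildtype and from 31324 to 95085 in knockout. Those of the 19 tested macrophage markers ran from 4276 to 47715 and from 15677 to 120450.

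Among the 35 lysosomal genes, 1 was higher in knockout, Laptm5, and 1 was lower, Atp6v1d. Over all genes tested, 2.74% were called higher and 2.11% lower. Most of the other members differed by little between the genotypes. The estimate was above 0 for 25 of 35 members, 71.4%, beside 47.2% of all genes, and the median difference of the members was 0.18, beside -0.019 over all genes. Without Laptm5 and Atp6v1d, 24 of 33 lay above 0 and the median was again 0.18. The knockout array was the higher of the pair on all 4 days for 13 of 35 members, beside 13.8% of all genes. It was the lower on all 4 days for 3 of 35, beside 13% of all genes. Only 4 members, Laptm5, Atp6v1d, Glb1 and Atp6v0a1, differed by more than 1.5-fold. The plot of differences by role group shows these estimates together.

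**Figure D1:**
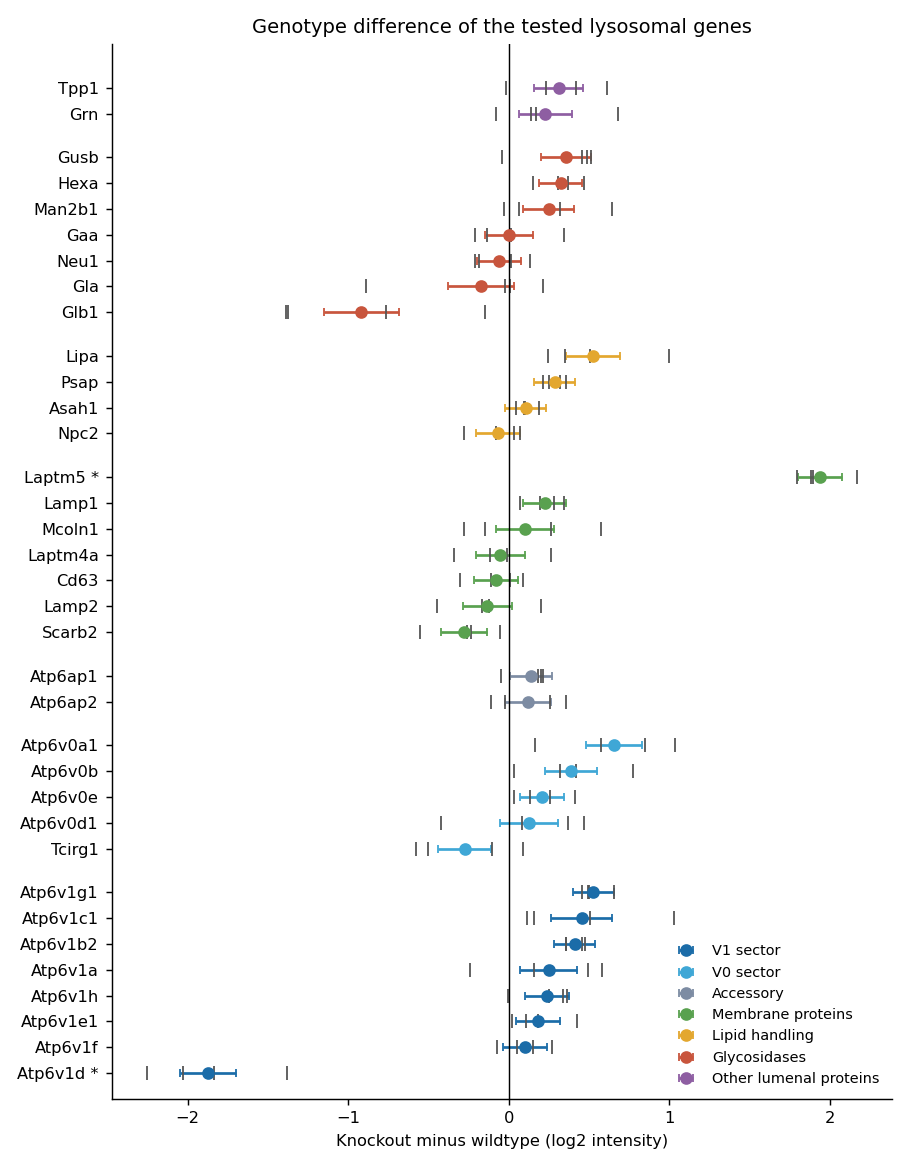
Knockout minus wildtype difference in log2 intensity for the 35 tested lysosomal genes, grouped by role. Points and bars give the mean over 4 days with its standard error, short vertical strokes the 4 daily differences, and asterisks the called genes. Laptm5, at 1.94, and Atp6v1d, at -1.87, stand away from the other 33 genes, of which Glb1 has the lowest estimate, -0.92.

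Laptm5 encodes a lysosomal transmembrane protein of blood-forming cells that helps send antigen receptors to the lysosome. Its level in wildtype was 9.18, 10.28, 11.70 and 12.26 on days 3, 5, 7 and 9, and in knockout 11.08, 12.45, 13.49 and 14.15. Both genotypes climbed at each step, the knockout array was the higher on each day, and the genotypes overlapped across days because the late wildtype arrays lay above the knockout array of day 3. The difference was 1.94 ± 0.14, a fold of 3.83 (limma, adjusted p = 0.000983, n = 4 days), and the daily values kept to a narrow range, 1.90, 2.17, 1.79 and 1.88. Laptm5 also rose with day, by 0.52 ± 0.038 per day over both genotypes (limma, adjusted p = 0.000369). It was called in each fit that left out a day, and it lost its call in the fit without a day term (adjusted p = 0.446).

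Laptm4a, the relative of Laptm5 that most cell types carry on late endosomes and lysosomes, showed no such gap. Its level in wildtype was 12.66, 12.95, 13.15 and 13.14 on days 3 to 9, and in knockout 12.92, 12.94, 13.04 and 12.80. The ranges overlapped and the sign of the daily difference changed between day 3, 0.26, and day 9, -0.34. The mean difference was -0.05 ± 0.15 (limma, adjusted p = 0.893), and its sign turned on the authors' processed values, to 0.026, and without day 9, to 0.045.

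Macrophage markers moved the same way as Laptm5. Of 22 listed markers, from which Laptm5 and Cd68 were left out, 19 were tested, 19 had an estimate above 0, 12 were called higher and 0 lower, with a median difference of 1.94. Adgre1, the F4/80 antigen of macrophages, differed by 2.63 ± 0.21 (limma, adjusted p = 0.00132). Of the 19 markers, 14 to 17 were detected on a wildtype array and 15 to 19 on a knockout array. Ptprc and Itgam were above background on 0 wildtype arrays and 2 knockout arrays. Both thus passed the filter only through the knockout arrays, where they are high, and their differences are no support. Ptprc is among the 12 called, and both are among the 19 above 0 and in the median. Csf1r, Mpeg1 and Ccr2 did not reach the tests. Of 13 tested markers of mature fat cells, 4 were called higher and 0 lower, 12 had an estimate above 0, and the median was 1.53. Fabp4, not called, is among the 12 and in the median. It was above background on 0 wildtype and 3 knockout arrays, so it passed the filter only through knockout and is no support. Adipoq, the fat cell hormone adiponectin, differed by 1.58 ± 0.45 (limma, adjusted p = 0.106). The part of either cell type in the Laptm5 difference was not tested. In RNA from a whole culture, more cells of a type and more RNA per cell cannot be told apart.

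**Figure D2:**
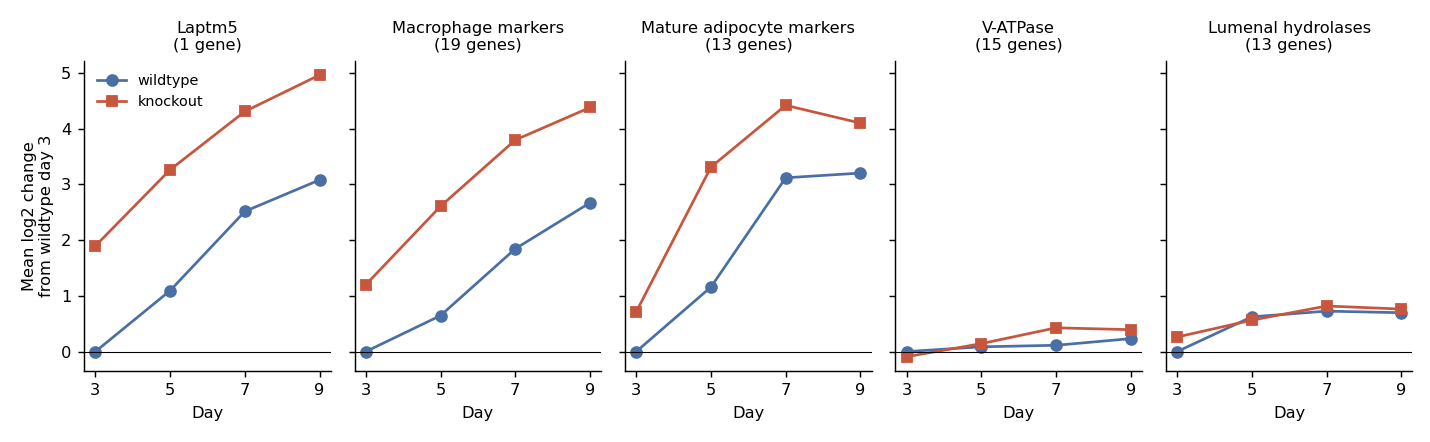
Change in log2 intensity from the wildtype array of day 3, plotted against day for Laptm5 and as the mean of 19 macrophage markers, 13 mature fat cell markers, 15 V-ATPase genes and 13 lumenal hydrolases and cofactors. Each point is 1 array. Laptm5 ends at 3.08 in wildtype and 4.97 in knockout and macrophage markers at 2.67 and 4.38, while the V-ATPase genes end at 0.23 and 0.39 and the hydrolases at 0.70 and 0.76.

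Atp6v1d encodes the D subunit of V1, part of the central stalk that turns inside the pump. Its level in wildtype was 11.99, 12.17, 12.09 and 12.32 on days 3, 5, 7 and 9, and in knockout 9.74, 10.14, 10.71 and 10.48. The groups did not overlap: the lowest wildtype array lay 1.28 above the highest knockout array. Atp6v1d fell by 1.87 ± 0.18 in knockout, a fold of 3.67 (limma, adjusted p = 0.00234, n = 4 days), with daily differences of -2.25, -2.03, -1.38 and -1.84. The call rests on 1 probe, and on the authors' processed values the difference of -1.82 had an adjusted p of 0.0550 in the same limma fit.

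The promoters of these 2 called genes are shown because the data turn on them, beside those of Atp6v0b and Glb1, described below, which hold the CACGTG letters. Each runs from 250 bases before to 50 bases after the start that RefSeq gives on build GRCm38.p6, in the direction of the gene, and capitals mark CACGTG. Laptm5 lies at chr4:130913066-130913365 on the plus strand, Atp6v1d at chr12:78861589-78861888 on the minus strand, Atp6v0b at chr4:117887280-117887579 on the minus strand, and Glb1 at chr9:114400828-114401127 on the plus strand.
Laptm5: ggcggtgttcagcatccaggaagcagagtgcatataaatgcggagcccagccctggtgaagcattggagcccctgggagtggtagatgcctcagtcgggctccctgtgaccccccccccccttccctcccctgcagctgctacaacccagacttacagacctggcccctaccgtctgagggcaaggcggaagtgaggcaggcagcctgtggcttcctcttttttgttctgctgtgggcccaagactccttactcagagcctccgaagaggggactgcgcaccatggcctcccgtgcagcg
Atp6v1d: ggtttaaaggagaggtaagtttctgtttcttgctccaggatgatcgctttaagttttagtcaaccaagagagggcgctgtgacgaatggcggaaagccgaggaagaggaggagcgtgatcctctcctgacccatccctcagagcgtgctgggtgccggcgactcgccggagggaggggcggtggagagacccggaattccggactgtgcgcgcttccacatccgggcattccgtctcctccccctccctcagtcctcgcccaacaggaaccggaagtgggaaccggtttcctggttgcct
Atp6v0b: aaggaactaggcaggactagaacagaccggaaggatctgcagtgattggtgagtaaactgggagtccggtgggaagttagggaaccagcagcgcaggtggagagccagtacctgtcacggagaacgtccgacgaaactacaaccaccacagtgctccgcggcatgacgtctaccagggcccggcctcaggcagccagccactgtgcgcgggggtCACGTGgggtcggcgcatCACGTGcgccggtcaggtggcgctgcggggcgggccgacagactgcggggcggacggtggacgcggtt
Glb1: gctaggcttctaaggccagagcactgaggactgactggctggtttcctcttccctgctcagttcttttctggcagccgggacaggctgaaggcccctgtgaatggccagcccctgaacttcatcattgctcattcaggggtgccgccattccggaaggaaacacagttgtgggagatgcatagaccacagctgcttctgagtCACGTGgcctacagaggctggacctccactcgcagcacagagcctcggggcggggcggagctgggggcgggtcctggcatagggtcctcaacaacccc

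The windows of Laptm5 and Atp6v1d hold 0 copies of CACGTG. Atp6v0b holds 2, at 36 and 18 bases before the start, and Glb1 holds 1, at 48 bases before it. Of the 32 members with a window in the RefSeq table, 9 held CACGTG, 28.1%, against 2187 of 27025 genes, 8.09%. The longer form GTCACGTG, which contains the shorter one and was searched on both strands, stood in 6 members, 18.8%, against 2.55% of all genes. The 6 were Atp6v0b, Atp6v0d1, Gla, Glb1, Lamp1 and Mcoln1, and Atp6v0e, Atp6v1a and Gaa held the shorter form alone. These are matches of letters, not measured binding.

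The 7 other V1 genes had estimates above 0, and none passed the test. Atp6v1g1, the G subunit of the outer stalk, had levels of 9.81, 10.14, 10.19 and 10.31 in wildtype and 10.31, 10.65, 10.85 and 10.76 in knockout on days 3 to 9. The knockout array of a day was the higher on all 4 days, and the lowest knockout array and the highest wildtype array lay at the same level to the second decimal. The difference was 0.53 ± 0.13 (limma, adjusted p = 0.0729). Atp6v1b2, the B subunit that helps bind ATP, was singled out after its values were seen because its groups did not overlap: its level was 11.92, 12.28, 12.28 and 12.19 in wildtype and 12.37, 12.64, 12.64 and 12.67 in knockout. Its difference was 0.41 ± 0.13 (limma, adjusted p = 0.134). Atp6v1a, Atp6v1c1, Atp6v1e1 and Atp6v1h had differences of 0.25, 0.45, 0.18 and 0.24. Atp6v1f, the F subunit of the central stalk, differed by 0.10 ± 0.13 (limma, adjusted p = 0.742).

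Within V0, Atp6v0a1 had the largest difference. It encodes an a subunit, the part that forms the proton path, in the form that many tissues use. Its level was 10.74, 10.50, 10.67 and 10.80 in wildtype and 10.90, 11.07, 11.71 and 11.65 in knockout on days 3 to 9. Every knockout array lay above every wildtype array, by 0.10 at the closest, and the daily difference was 0.17, 0.58, 1.04 and 0.85. The mean difference of 0.66 ± 0.18 did not pass the test (limma, adjusted p = 0.0936), and without day 3 it was 0.82 with an adjusted p of 0.0291. A dimmer probe of Atp6v0a1 gave 0.65 ± 0.38 (limma over probes, adjusted p = 0.408), was below background on the wildtype array of day 5, and was the lower in knockout on day 3.

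Tcirg1 encodes the a subunit of the osteoclast pump, and its 4 probes all had estimates below 0, from -0.33 to -0.18. The probe used gave -0.27 ± 0.16 (limma, adjusted p = 0.412). The difference between the a subunits was not tested. Atp6v0d1, the d subunit found in most cells, had levels of 12.41, 11.90, 12.17 and 12.14 in wildtype and 11.99, 12.27, 12.64 and 12.23 in knockout. The knockout array was the lower on day 3 and the higher on the other days, and the difference was 0.13 ± 0.18 (limma, adjusted p = 0.764), running from 0.011 without day 7 to 0.31 without day 3. The osteoclast and macrophage form, Atp6v0d2, was not well above background on any array. Of 7 listed osteoclast markers, 4 were tested and 1, Mmp9, was called, lower in knockout by -0.71 (limma, adjusted p = 0.0360), with summed intensities of 573 to 943 in wildtype and 469 to 901 in knockout. Ocstamp, Dcstamp and Calcr did not reach the tests.

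Both accessory proteins of the pump differed little. Atp6ap1, needed for the assembly of V0, had levels of 13.11, 13.11, 12.80 and 12.91 in wildtype and 13.32, 13.06, 12.99 and 13.11 in knockout. Its groups overlapped, with a difference of 0.14 ± 0.13 (limma, adjusted p = 0.634). Atp6ap2, the (pro)renin receptor, had levels of 12.93, 13.04, 12.83 and 12.94 in wildtype and 12.91, 12.92, 13.08 and 13.29 in knockout. On this probe of Atp6ap2 the knockout array was the higher on days 7 and 9, and the mean difference was 0.12 ± 0.15 (limma, adjusted p = 0.712). The other 3 probes were the higher in knockout on all 4 days, with differences of 0.26 to 0.40, so the probes disagree on days 3 and 5.

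As a class, 13 of the 15 tested V-ATPase genes of the list had an estimate above 0, with a median of 0.21. In knockout, 7 of the 15 were the higher on all 4 days, beside 13.8% of all genes. On days 3, 5, 7 and 9 the median difference of these genes was 0.030, 0.25, 0.35 and 0.32. These listed pump genes were close to even on day 3 and higher in knockout at the median from day 5, on 1 array against 1 with no test. The 5 tested V-ATPase genes outside the list did not share this course. Their medians were 0.21, -0.49, -0.21 and 0.21 on days 3, 5, 7 and 9, with Atp6v1c2 and Atp6v0e2 near background. In the fit of a difference in slope between the genotypes, 0 V-ATPase genes were called.

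Glb1, the beta-galactosidase of the lysosome, was the glycosidase with the largest difference and the only one below 0 on all 4 days. Its level in wildtype was 10.62, 11.74, 11.73 and 11.71 on days 3, 5, 7 and 9, and in knockout 10.48, 10.98, 10.35 and 10.33. The 4 knockout arrays and the wildtype array of day 3 lay together, and the wildtype arrays of days 5, 7 and 9 lay above all of them. The daily difference was -0.15, -0.76, -1.38 and -1.39, and the mean of -0.92 ± 0.23 missed the threshold (limma, adjusted p = 0.0796). Leaving out day 3 gave -1.18 with an adjusted p of 0.0145. Its difference in slope had an unadjusted p of 0.0699 in limma and was not called.

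**Figure D3:**
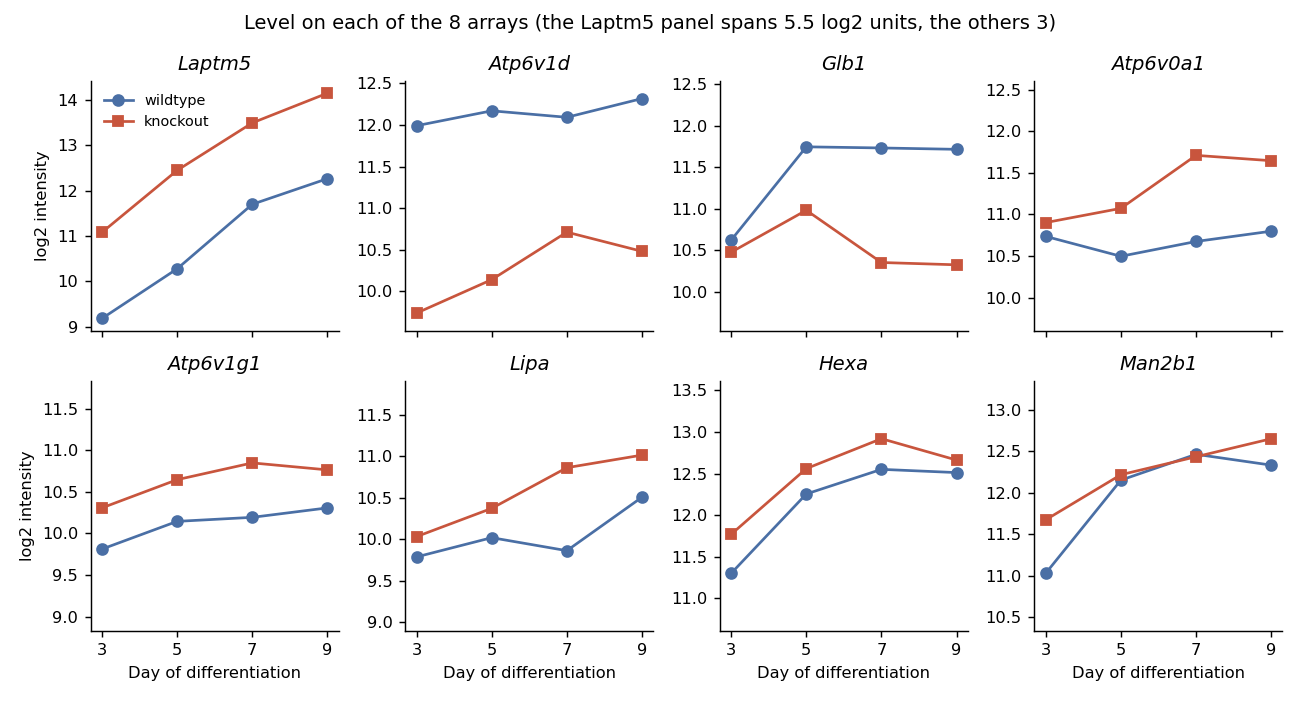
Log2 intensity on each of the 8 arrays against day for 8 lysosomal genes, wildtype as circles and knockout as squares, 1 array per point. Axes of the 7 panels other than Laptm5 span the same range. Atp6v1d lies lower in knockout on each day, Laptm5 higher on each day, and Glb1 parts between days 3 and 7, from -0.15 to -1.38.

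The other glycosidases did not share that pattern. Gusb, the beta-glucuronidase, had levels of 11.98, 12.39, 12.16 and 12.10 in wildtype and 12.44, 12.35, 12.65 and 12.61 in knockout. Its groups overlapped only through day 5, and the difference was 0.36 ± 0.15 (limma, adjusted p = 0.256). Of its other probes, 1 gave 0.30 and 1 gave 0.82, the last with an adjusted p of 0.0409 in a limma fit over probes. Hexa, the alpha subunit of beta-hexosaminidase, Man2b1, the lysosomal alpha-mannosidase, Gaa, which splits glycogen, and Neu1, a sialidase, had differences of 0.32, 0.25, 0.0017 and -0.061, and that of Man2b1 was 0.12 without day 3. Gla, the alpha-galactosidase that acts on globotriaosylceramide, was above background on 1 wildtype and 1 knockout array and is given no fold.

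Among genes of lipid handling, Lipa, the acid lipase of the lysosome, had the largest difference. Its level was 9.79, 10.02, 9.86 and 10.51 in wildtype and 10.03, 10.37, 10.86 and 11.01 in knockout on days 3 to 9. The knockout array was the higher on each day, though the groups overlapped across days, and the difference of 0.52 ± 0.17 was not called (limma, adjusted p = 0.141). Psap, the precursor of the saposins that present lipids to the hydrolases, had levels of 14.08, 14.23, 14.32 and 14.40 in wildtype and 14.30, 14.55, 14.68 and 14.65 in knockout. Its knockout array was likewise the higher on each day, with overlap across days, by 0.29 ± 0.13 on average (limma, adjusted p = 0.275). Asah1, the acid ceramidase, and Npc2, which hands cholesterol on inside the lumen, had differences of 0.11 and -0.064, and a second probe of Asah1 gave -0.12.

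The remaining membrane proteins lay on both sides of 0. Scarb2, the receptor that brings glucocerebrosidase to the lysosome, had levels of 10.23, 10.10, 10.00 and 9.76 in wildtype and 10.17, 9.87, 9.45 and 9.50 in knockout. Its knockout array was the lower on each day while the groups overlapped across days, and the difference was -0.28 ± 0.14 (limma, adjusted p = 0.340). Lamp1 and Lamp2, the main glycoproteins of the lysosomal membrane, had differences of 0.22 and -0.13, and the 4 probes of Lamp2 ran from -0.17 to 0.042. Cd63, a tetraspanin of late endosomes, gave -0.079, -0.42 and -0.53 on its 3 probes. Mcoln1, a cation channel of the lysosome, differed by 0.10. None of these 5 genes was called.

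With day, most members had a slope above 0. Of the 35, 7 rose, 20%, and 0 fell at an adjusted p under 0.05, where 8.54% of all genes rose and 8.25% fell. Scarb2, with a slope of -0.098 ± 0.030 (limma, adjusted p = 0.0553), was called as falling in 5 of the 10 alternatives. The slope was above 0 for 32 of 35 members, 91.4%, beside 45.3% of all genes, with a median of 0.066 per day beside -0.010. Besides Laptm5, the 7 were Man2b1, Hexa, Tpp1, Atp6v0b, Atp6v1f and Lipa. In the fit of a difference in slope, 0 members and 0% of all genes were called by limma, and 0 members reached an unadjusted p under 0.05, beside 6.1% of all genes. Of the 7 rising genes, 1, Atp6v0b, held CACGTG in its promoter window.

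Man2b1 had levels of 11.03, 12.15, 12.46 and 12.33 in wildtype and 11.67, 12.22, 12.43 and 12.65 in knockout. Day 3 was the low point in both genotypes, and the slope was 0.184 ± 0.044 per day (limma, adjusted p = 0.0249). Hexa had levels of 11.30, 12.26, 12.55 and 12.51 in wildtype and 11.77, 12.56, 12.92 and 12.66 in knockout, with a slope of 0.174 ± 0.047 (limma, adjusted p = 0.0366). Hexa, like Atp6v1b2 above, was chosen for its full values after these were seen. Tpp1, a peptidase that takes short peptides off the ends of proteins, had levels of 8.97, 10.04, 9.93 and 10.12 in wildtype and 9.59, 10.02, 10.35 and 10.35 in knockout. Its slope was 0.149 ± 0.041 (limma, adjusted p = 0.0383).

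Both pump genes that rose did so across all 4 days. Atp6v0b, a subunit of the proton-carrying ring, had levels of 10.78, 10.88, 11.02 and 11.50 in wildtype and 10.81, 11.30, 11.80 and 11.82 in knockout. The slope was 0.146 ± 0.033 per day (limma, adjusted p = 0.0199). Atp6v1f had levels of 12.01, 12.50, 12.76 and 12.99 in wildtype and 12.16, 12.77, 12.82 and 12.92 in knockout. It climbed at each step in both genotypes, with a slope of 0.138 ± 0.032 (limma, adjusted p = 0.0213). The slope of Lipa was 0.136 ± 0.035 (limma, adjusted p = 0.0301).

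Some of these slopes leaned on day 3. Without its 2 arrays, 1 of the 7 slopes was called, that of Laptm5, at 0.46 per day. Calls over all genes dropped too, from 833 rising and 805 falling to 141 and 48. Those of Man2b1, Hexa, Tpp1 and Atp6v1f shrank to 0.077, 0.045, 0.053 and 0.080, while those of Atp6v0b and Lipa, 0.142 and 0.141, kept their size and lost their call. Without day 7 or day 9 the number called was 2 each time, and without day 5 it was 5. Over all genes, 480 rose and 340 fell without day 7, 418 and 308 without day 9, and 724 and 648 without day 5. The macrophage list rose with day in 17 of 19 genes, with a median slope of 0.61, and its part in the members' slopes was not tested.

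The step from day 3 to day 5 was the larger in wildtype for the median hydrolase and the larger in knockout for the median listed pump gene. Gla was above background on 0 of the 4 arrays of this step and is left out of these counts. The 6 other glycosidases had a larger step in wildtype than in knockout, with medians of 0.80 and 0.41. Over the 12 hydrolases and lumenal cofactors, 8 had the larger step in wildtype, beside 54.4% of all genes, and the medians were 0.63 and 0.32. The 4 tested genes of lipid handling went the other way: 0 had the larger step in wildtype, and their medians were 0.19 and 0.31. For the 15 listed V-ATPase genes the medians were 0.10 in wildtype and 0.28 in knockout. The 5 tested V-ATPase genes outside the list had the reverse order, with medians of 0.33 and -0.37, and all 5 had the larger step in wildtype. All genes tested had medians of 0.032 and -0.042. Grn, the progranulin precursor, which reaches the lysosome and is cut there, is an example: its level was 12.44, 13.33, 13.42 and 13.21 in wildtype and 13.12, 13.25, 13.56 and 13.38 in knockout. Its wildtype array of day 3 lay below the other 7 arrays, which span a narrow range, and its step was 0.89 in wildtype and 0.13 in knockout. Each step sets 1 array against 1 and has no test. The wildtype array of day 3 had the lowest mean raw intensity, 638 against 891 to 1026 on the others, and the part of that in the step was not tested. Macrophage markers had median steps of 0.62 in wildtype and 1.80 in knockout, the reverse order to the glycosidases. Markers of mature fat cells had that same reverse order, with median steps of 1.23 in wildtype and 2.95 in knockout.

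**Figure D4:**
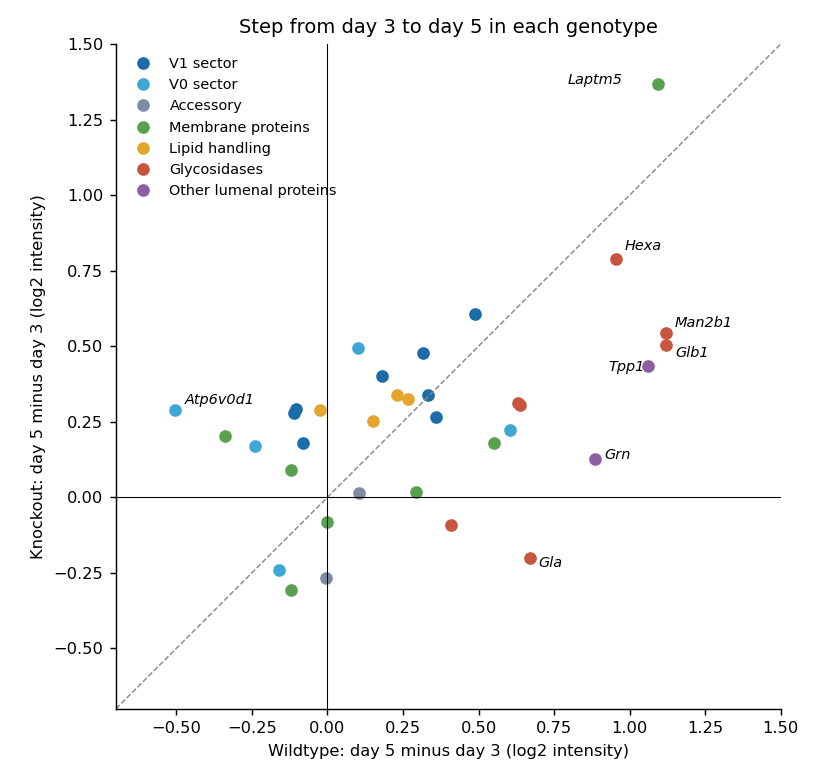
Change in log2 intensity from day 3 to day 5 in wildtype (horizontal) and knockout (vertical) for the 35 tested lysosomal genes, coloured by role, with the dashed line where both are equal. The 6 glycosidases other than Gla lie below the line, with medians of 0.80 and 0.41; Gla is plotted but was above background on 0 of these 4 arrays. Each point rests on 4 arrays without replicates.

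The knockout arrays of days 3, 5 and 7 were also set against the wildtype arrays of the next harvest, days 5, 7 and 9. These pairs share arrays with the comparison above and are given beside it as values. The median difference of the members was -0.011, where the same-day median was 0.18, with 17 members above 0 and 18 below. Atp6v1d was again lower, by -2.0 ± 0.21 (limma, adjusted p = 0.00872), and Glb1 was called lower, by -1.13 ± 0.19 (limma, adjusted p = 0.0407). The Laptm5 difference was 0.93 ± 0.18 (limma, adjusted p = 0.0580).

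Of 62 further lysosomal genes outside the 39, 45 were tested, 1 was called higher, 2.22% beside 2.74% of all genes, and 0 lower, with a median difference of 0.12. The 1 was Sort1, the sorting receptor sortilin, at 1.14 ± 0.18 (limma, adjusted p = 0.0171). With day, 4 of the 45 rose, 8.89% beside 8.54% of all genes, and 0 fell. The 4, named after their values were seen, were Sort1, Hyal1, Gm2a and Laptm4b. Both shares of rising and higher genes were near those over all genes. The MiT/TFE transcription factors and their regulators had 6 tested genes of 11, with 0 called for genotype and a median of 0.054. Tfe3, the MiT/TFE factor that was tested, had a difference of -0.13, and Tfeb, Mitf and Tfec did not reach the tests.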

How the data were processed

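RNA was measured on 4 wildtype and 4 Irf3-knockout Illumina bead arrays. For each of 25697 probes the authors deposited an intensity, linear and without background subtraction, and beside it a detection p-value (p_value) from the array's negative controls. The deposited matrix of processed values is a linear intensity with a floor of 20 and a normalization that none of the sources used here states. The deposited values were turned into log2 intensities with neqc of limma 3.58.1 in R 4.3.3, which corrects the background from the detection p, adds an offset of 16 and normalizes by quantiles. The filter kept 14232 probes whose detection p was under 0.05 on 2 or more arrays, and a gene was read from its kept probe with the highest mean, 9758 genes. Of 55 probes of the members, 53 were kept, and 8 members had over 1 probe. Symbols came from the platform annotation, updated through gene identifiers for 23962 of 23978 named probes. The build of the array design is not stated.

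Genotype was fitted with day as a factor (3 residual degrees of freedom), so that the daily differences are the repeats. A slope per day was fitted with genotype as a term (5), and the difference in slope as an interaction (4). Tests were two-sided limma tests with Benjamini-Hochberg adjustment over all genes, and the steps were tested on simulated data. The members, the marker lists and the tests were chosen with earlier results of these data known. Full values are given for members called for genotype or for difference in slope, for the 2 members of each role group with the largest absolute difference and the 1 with the steepest slope, and for the d subunits and the Laptm genes. Alternatives covered the background correction, the source table, the filter, the choice of probe, the variance prior, the day term, the matching of days and leaving out a day. The number of arrays limits the precision. Promoter windows were matched by symbol for 32 of 39 members, and a gene with several windows counted once.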

Additional observations from a re-analysis of the deposited data

How the results depend on the processing

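Of the 35 tested members, 2 were called for genotype. The number was 6 without background correction and 6 with a trended and robust variance prior, where Atp6v0a1, Atp6v1b2, Atp6v1g1 and Glb1 joined, and 1 with no day term, which left Atp6v1d. Leaving out a day gave 2 to 4, and the 4, without day 3, included Atp6v0a1 and Glb1. Scarb2 was called as falling in 5 of the 10 alternatives for slope. Neu1, with a limma adjusted p of 0.0513 for slope in the fit reported, was called as rising in several alternatives. These included the fits without background correction and on the authors' processed values. On the authors' values the slopes of Hexa, Tpp1 and Lipa lost their call. For slope, 7 members were called in the fit reported, 12 without background correction and 12 with the trended and robust prior, and leaving out a day gave 1 to 5, with 1 without day 3 and 2 without day 7 or day 9. The median difference of the members, 0.18, turned to -0.011 against the next wildtype harvest. There the sign turned for 8 members, Atp6v1f (-0.17), Grn (-0.011), Man2b1 (-0.21), Tpp1 (-0.046), Hexa (-0.023), Atp6v0e (-0.037), Asah1 (-0.046) and Gaa (-0.19), and the Laptm5 difference of 0.93 lost its call. The sign of Laptm4a turned to 0.026 on the authors' processed values, and over the fits that left out a day it ran from -0.16 to 0.045. On the authors' values the call of Atp6v1d was lost and Atp6v1g1 was called, at 0.61. The differences of the 18 members chosen by rule for full values, without Atp6v1b2 and Hexa, were followed as each day was left out. They moved by over 1.5 times for 7 members: Atp6ap2 (0.041 to 0.20), Atp6v0b (0.26 to 0.51), Atp6v0d1 (0.011 to 0.31), Atp6v1f (0.046 to 0.16), Grn (0.076 to 0.33), Man2b1 (0.12 to 0.34) and Laptm4a, none of them called. The cause of these changes was not tested. Over all genes, 267 were called higher and 206 lower for genotype, against 429 and 342 with the trended and robust prior, 25 and 90 with no day term, 46 and 48 on the authors' values, and 72 and 166 against the next wildtype harvest. Leaving out a day gave from 78 higher and 83 lower, without day 9, to 560 and 522, without day 3. For slope, 833 of all genes rose and 805 fell, against 911 and 964 without background correction and 939 and 987 with the trended and robust prior. Leaving out a day gave 141 and 48 without day 3 and 724 and 648 without day 5. It gave 480 and 340 without day 7 and 418 and 308 without day 9. The difference in slope had 0 members called in each fit that was run. The genotype fit was paired by day, and the fit with no day term is its unpaired alternative. With 1 array per genotype and day, a difference on a single day has no test, and genes near background, such as Gla, have only a bound.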
